A study of Drosophila melanogaster with 4 samples.

Results

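Notum-like epithelial cells were examined in *scrib* mutant wing imaginal discs. A cell was taken as notum-like when at least 2 of the 4 notum genes *eyg*, *toe*, *tup* and *pnr* had a value above 0 and fewer than 2 of the 4 myoblast genes *twi*, *Him*, *htl* and *zfh1* did. This selected 1089 of 14456 cells, or 7.53% of all cells. Because the cells were chosen on these 8 genes, the values of the 8 genes are given as a description only. Another 16 cells carried 2 or more notum genes but also 2 or more myoblast genes and were left out by the rule. The notum-like cells were compared with the cells of the same library that had none of the 4 notum genes, called notum-negative cells here.

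The notum is the proximal, dorsal part of the wing disc that forms the back of the adult thorax, while the distal pouch forms the wing blade and the hinge lies between them. In the notum, *eyg* and *toe* encode Pax transcription factors, *tup* encodes a LIM-homeodomain factor and *pnr* encodes a GATA factor of the medial notum. Muscle precursors, the myoblasts, lie beneath the notum epithelium and carry the FGF receptor Heartless, and the notum epithelium is a known source of its ligands.

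The discs came from *scrib*-/- FRT82B larvae, bred from a scrib[1] FRT82B stock balanced over TM6B and kept at 25 degrees, and they were taken 4, 5, 8 and 14 days after egg laying. *scrib* encodes an apicobasal polarity protein, and the mutant discs grow into tumors while larval life is prolonged, so the 4 ages follow that course. Discs were dissociated with trypsin and 1 droplet (10x) single-cell library was prepared per age. Every library carried the mutation and no wild-type discs were analysed here, so the comparisons below are within mutant tissue. With 1 library per age there were no replicates of an age, and age cannot be told apart from library. No test was run between the classes either, since they were cut from the counts of the same cells, so the 4 ratios of a gene, 1 per library, are given as they are. All intervals and half-widths below are at a level of 95% and cover counting error only, not the spread between cells, animals or preparations.

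On days 4, 5, 8 and 14 there were 3785, 6457, 3104 and 1110 cells, with medians of 18298 to 23326 UMIs (unique molecular identifiers, 1 per captured RNA molecule) per cell. Of all cell barcodes, 107 occurred in more than 1 library. *pnr* was not listed in the files of days 4 and 5, where it counted as 0, so the rule could draw on 3 genes there and on 4 on days 8 and 14. Notum-like cells were the deeper class, and the gap was widest at the early ages. Their median depth was 31944, 28019, 19854 and 20057 UMIs on days 4, 5, 8 and 14, against 22638, 18433, 17718 and 18811 UMIs in notum-negative cells. Ribosomal protein genes took 43.5%, 42.8%, 45.7% and 39.8% of UMIs in notum-like cells and 49.2%, 48.3%, 48.0% and 41.6% in notum-negative cells. *scrib* RNA itself was not a check of the labels, since they do not say how the allele changes it. Its log2 ratio of notum-like over notum-negative cells was 0.44, 0.59, 0.33 and 0.19 in the same order of ages.

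The share of notum-like cells was low on days 4 and 5 and highest on day 14. It was 3.04% of cells on day 4 (115 cells, exact binomial interval 2.52 to 3.64%), 2.85% on day 5 (184 cells, 2.46 to 3.29%), 12.4% on day 8 (384 cells, 11.2 to 13.6%) and 36.6% on day 14 (406 cells, 33.7 to 39.5%). The intervals of days 4 and 5 overlapped, and those of days 8 and 14 lay above both. Detecting a gene depends on depth, so the cells were also thinned to 12000 UMIs each before the rule was applied, which left out 355 shallower cells on day 4, 953 on day 5 and 0 on days 8 and 14. The thinned shares were 0.962%, 1.05%, 8.51% and 29.1%, again lowest on days 4 and 5 and highest on day 14. Day 5 was then above day 4, with overlapping intervals (0.663 to 1.35% on day 4 and 0.801 to 1.36% on day 5). With the rule set on *eyg*, *toe* and *tup* only, an alternative chosen after seeing the data because *pnr* was missing from the early files, the shares on days 8 and 14 were 10.8% and 32.4%. Cells with exactly 1 notum gene made up 11.4%, 11.6%, 16.8% and 21.9% of cells, and notum-negative cells 85.4%, 85.4%, 70.5% and 40.1%.

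**Figure D1:**
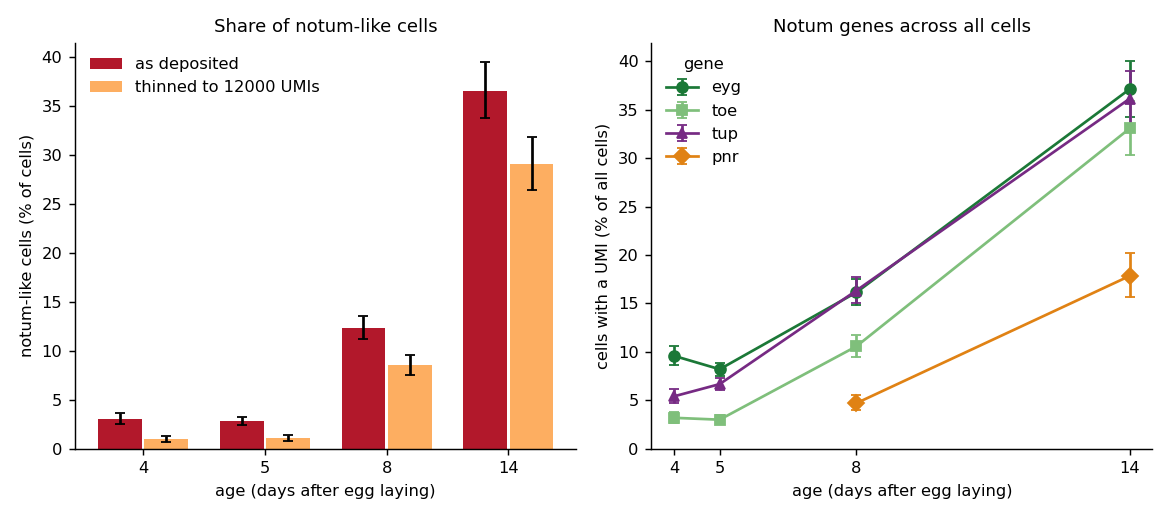
Left, share of notum-like cells in each library (% of cells, age in days after egg laying) as deposited and after thinning each cell to 12000 UMIs; right, share of all cells with a UMI of each notum gene; bars and whiskers show 95% exact binomial intervals. Each library is 1 preparation, and the notum-like share stands at 36.6% on day 14 against 3.04% on day 4.

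Of the selecting genes, *eyg*, *toe* and *tup* were more widely detected on days 8 and 14 than on days 4 and 5, and *pnr* more so on day 14 than on day 8. *eyg* had a UMI in 9.59%, 8.21%, 16.1% and 37.1% of all cells on days 4, 5, 8 and 14. *toe* was found in 3.20%, 3.00%, 10.6% and 33.1%, and *tup* in 5.42%, 6.68%, 16.3% and 36.1%. On day 8 *pnr* was found in 4.70% of cells, and on day 14 in 17.8%. Myoblast-rich cells, which carry at least 3 of the 4 myoblast genes and should lack notum RNA, gave a measure of background. Among myoblast-rich cells, 0 of 120 on day 4, 0 of 238 on day 5, 4 of 137 on day 8 and 6 of 36 on day 14 had 2 or more notum genes. The day 14 share of 16.7% (6.37 to 32.8%) was below the 36.6% of all cells but was not small. The median depth of myoblast-rich cells was 18042, 16934, 16526 and 19012 UMIs, below that of notum-like cells on all 4 days. No doublet caller was run, and the part of free RNA or doublets in these cells was not tested.

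Within notum-like cells, *eyg* with *tup* was the most frequent pair of notum genes on days 4, 5 and 8. The pair was detected in 60.0%, 59.8%, 50.8% and 53.2% of notum-like cells on days 4, 5, 8 and 14. *eyg* with *toe* was detected in 46.1%, 36.4%, 48.2% and 67.5%, and was the most frequent pair on day 14. All 4 genes were detected together in 40 cells on day 8 and 67 on day 14. *eyg* and *toe* are neighbouring genes on chromosome 3L, *toe* at 12422510 to 12432668 and *eyg* at 12462537 to 12468021, both on the minus strand. *tup* lies on 2L at 18859507 to 18881261 and *pnr* on 3R at 16026079 to 16041796. These positions are from the Ensembl BDGP6.54 annotation, which may not be the build behind the counts.

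Next, gene expression was compared between the classes within each library. The measure was the log2 ratio of mean UMIs per 10000 UMIs of the cell, notum-like over notum-negative, so that a positive value means higher in notum-like cells, and a gene was called at 2-fold. The 3822 genes tested were listed in all 4 files with a mean of at least 0.2 UMIs per 10000 over the 8 class means, with the rule's own genes left out. In all 4 libraries 23 genes were at least 2-fold higher in notum-like cells (0.602% of those tested) and 9 at least 2-fold lower (0.235%). These are counts by size and not by a test. The median log2 ratio over all genes was -0.04, 0.00, 0.01 and 0.00 on days 4, 5, 8 and 14.

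The number of genes that set notum-like cells apart was larger at the early ages. On day 4, 334 genes were higher (8.74% of those tested) and 134 lower (3.51%), and on day 5, 231 were higher (6.04%) and 52 lower (1.36%). On day 8, 60 were higher (1.57%) and 28 lower (0.733%), and on day 14, 41 were higher (1.07%) and 18 lower (0.471%). There were 115 notum-like cells on day 4 and 406 on day 14, so the early ratios carry more counting error, and the part of that in the counts was not tested. With ribosomal protein genes left out of each cell's total, the genes higher and lower were 311 and 336 on day 4, 214 and 121 on day 5, 68 and 49 on day 8, and 52 and 36 on day 14, among 5059 genes that then passed the filter. The excess of higher over lower genes on day 4 was lost under that setting, which changed both the scaling and the genes tested. Within cells at or above the median depth the counts were 316 and 172 on day 4 and 60 and 20 on day 14.

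The label of notum-like epithelium was checked against genes that the rule did not use. Genes of the disc epithelium were at similar levels in both classes. Their list held *Fas3*, *grh*, *shg*, *crb*, *arm*, *dlg1* and *l(2)gl*, which encode junction and polarity proteins and an epithelial transcription factor, and 0 of the 7 were past 2-fold in any library. The summed mean of the list was 10.1, 10.8, 11.9 and 16.8 UMIs per 10000 in notum-like cells on days 4, 5, 8 and 14, against 9.56, 9.73, 11.9 and 15.5 in notum-negative cells. The 6 myoblast genes outside the rule summed to 0.281, 0.300, 0.502 and 1.37 in notum-like cells, against 1.58, 1.53, 2.62 and 3.20 in notum-negative cells. This direction was set in part by the rule, which takes cells with 2 or more myoblast genes out of the notum-like class only, and it is no check of the label. *ct*, which marks the direct flight muscle precursors, had 0 UMIs in notum-like cells on days 4 and 5.

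The tracheal list did not follow 1 pattern. Its summed mean was 19.97, 18.7, 14.9 and 17.0 UMIs per 10000 in notum-like cells, against 8.87, 8.12, 8.17 and 11.4 in notum-negative cells. That sum came from *verm*, *serp* and *pio*, which encode secreted proteins of the apical matrix. *trh*, the transcription factor that defines tracheal cells, had 0 UMIs in notum-like cells on days 4 and 5 and reached only 0.00432 and 0.0242 per 10000 on days 8 and 14. *btl*, which encodes the FGF receptor Breathless of tracheal cells, went the other way early, on few UMIs. On day 4 it had 3 UMIs in notum-like and 1 in notum-negative cells. On day 5 it had 3 and 4, or 15.95-fold higher in notum-like cells on pooled UMIs (exact interval 2.34 to 94.3). Both classes had 8 UMIs of *btl* on day 14. Of the 5 hemocyte genes, 0 were listed in any file. Of the neuron and glia list, *repo* and *brp* were not listed, and *elav* with *nSyb* summed to 0.134 to 0.212 UMIs per 10000 in notum-like cells, against 0.0915 to 0.247 in notum-negative cells.

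Under the rule as set, other notum transcription factors were a weaker match to the label at the early ages than at the late ones. Of the 9 in the list, *BarH1* and *BarH2* were not listed, and 4 (*caup*, *mirr*, *Bx*, *Antp*) passed the filter on low values. Of these 4, 0, 0, 1 and 2 were 2-fold higher on days 4, 5, 8 and 14, where 8.74%, 6.04%, 1.57% and 1.07% of all genes were. Lower were 1, 1, 0 and 0, where 3.51%, 1.36%, 0.733% and 0.471% of all genes were. *mirr* and *caup* encode Iroquois homeodomain factors of the notum. *mirr* averaged 0.0676, 0.0831, 1.42 and 3.33 UMIs per 10000 in notum-like cells, against 0.0450, 0.0556, 0.363 and 1.03 in notum-negative cells. *caup* averaged 0.135, 0.214, 0.962 and 2.30 in notum-like cells, against 0.0949, 0.170, 0.591 and 0.994 in notum-negative cells. *mirr* passed 2-fold on days 8 and 14 only, and *caup* on day 14 only. The early *mirr* ratios of 0.59 and 0.58 had half-widths of 0.59 and 0.51, and among cells at or above the median depth the day 5 value was -0.61. *ush*, which encodes a cofactor of Pannier, was rare and averaged 0.0146, 0.0199, 0.0590 and 0.119 in notum-like cells, against 0.00539, 0.00826, 0.0254 and 0.0617 in notum-negative cells. *Bx*, a LIM-domain factor, was the lower gene and went against the label early, with log2 ratios of -2.07, -1.68, -0.58 and 0.07. *ara*, the other Iroquois gene, was below the filter and had 2 UMIs in notum-like cells on day 4, 3.69-fold lower on pooled UMIs (exact interval 1.004 to 30.7-fold), and log2 ratios of -0.13, -0.10 and 1.13 on days 5, 8 and 14. *Antp*, the Hox gene of the thorax, had log2 ratios of 0.23, 0.22, 0.28 and 0.93. On days 4 and 5 the rule as set thus took cells whose *mirr* and *caup* levels were within 2-fold of those in notum-negative cells. This depended on the setting. With at least 3 notum genes (23 and 25 cells) the ratios on days 4 and 5 were 1.27 and 1.75 for *mirr* and 1.61 and 1.32 for *caup*. In thinned cells they were 0.22 and 1.42 for *mirr* and 1.80 and 0.05 for *caup*.

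The cells just outside and just inside the threshold were set side by side. Cells with exactly 1 notum gene had levels between those of cells with 0 and with 2 for several genes that the rule did not use. *ths*, which encodes an FGF ligand of Heartless, averaged 0.453, 0.700, 0.836 and 0.746 UMIs per 10000 in cells with 2 notum genes on days 4, 5, 8 and 14, against 0.238, 0.431, 0.630 and 0.498 in cells with 1. *vg*, a selector of the wing, averaged 0.231, 0.195, 0.348 and 1.06 in cells with 2 notum genes, against 0.632, 0.443, 0.953 and 1.13 in cells with 1. *mirr* on day 14 averaged 2.34 in cells with 2 notum genes, against 1.60 in cells with 1. On day 4 *mirr* averaged 0.0473, 0.0280 and 0.0573 in cells with 0, 1 and 2 notum genes, so cells with 1 were not between. The cells with 1 notum gene also lay between in depth on days 4 and 5, at 27638 and 24033 median UMIs, against 32400 and 27981 in cells with 2. For *ths* and *vg*, cells just outside the threshold thus had intermediate means at every age. For *vg* on days 4 and 8 the ratio between cells with 2 and 1 notum genes was larger than that between cells with 1 and 0. Other genes were not always between. On day 8 *caup* averaged 0.621, 1.03 and 0.906 in cells with 0, 1 and 2 notum genes, and *wg* 0.314, 0.141 and 0.181. Whether single cells were intermediate or the cells with 1 gene were a mixture was not tested.

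**Figure D2:**
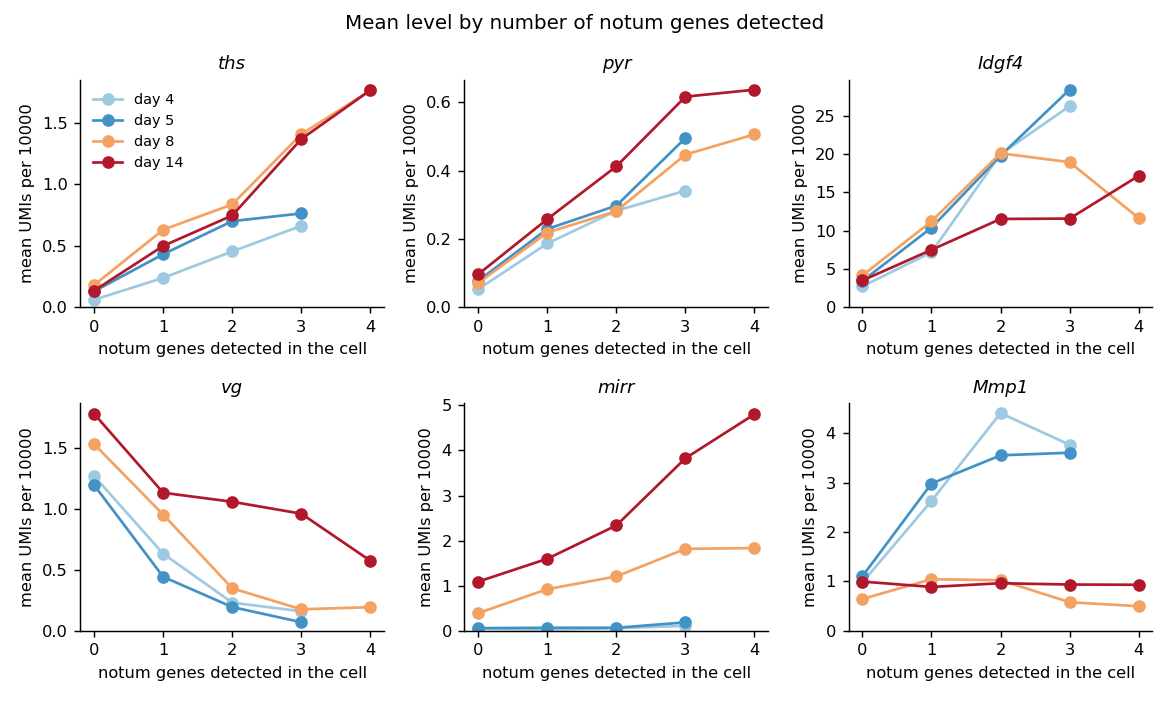
Mean UMIs per 10000 of 6 genes that the rule did not use, by the number of notum genes detected in the cell (0 to 4, cells with fewer than 2 myoblast genes), 1 line per library and no error bars. On days 4 and 5, 3 genes is the highest class because *pnr* was not listed; *ths* stands at 0.453 on day 4 in cells with 2 notum genes, against 0.238 with 1, and *vg* runs the other way.

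The FGF ligands of Heartless were among the genes higher in notum-like cells throughout. *ths* averaged 0.495, 0.708, 1.07 and 1.16 UMIs per 10000 in notum-like cells on days 4, 5, 8 and 14, against 0.0575, 0.121, 0.166 and 0.127 in notum-negative cells. Its log2 ratios were 3.11, 2.55, 2.69 and 3.19, with half-widths of 0.14 to 0.28. *pyr*, the other FGF8-like ligand, averaged 0.294, 0.325, 0.345 and 0.530 in notum-like cells, against 0.0502, 0.0728, 0.0669 and 0.0974 in notum-negative cells, or log2 ratios of 2.55, 2.15, 2.36 and 2.44. Levels of both ligands in notum-like cells lay above those in notum-negative cells at every age. The ratio was larger on day 14 than on day 5, an order that was not kept in thinned cells. Among only those cells of both classes at or above the median depth of their library, an alternative chosen after seeing the data, the ratios of *ths* were 3.41, 2.31, 2.58 and 3.04 and those of *pyr* 2.85, 2.07, 2.20 and 2.10. In thinned cells the day 4 ratio of *pyr* was 1.21 and that of *ths* 2.52. On days 5 and 14 the thinned ratios were 2.31 and 2.24 for *pyr* and 2.96 and 2.90 for *ths*. The third ligand in the list, *bnl*, which acts on tracheal cells through Breathless, was higher in notum-like cells on days 4 and 5 and lower on day 14. *pyr* lies at 11712263 to 11726345 and *ths* at 11756817 to 11814424 on the plus strand of chromosome 2R. *ths* overlaps *Ir48c* on the other strand, and the sources used here do not say whether reads were counted by strand.

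Of the 23 genes higher in all libraries, 13 kept the call in thinned cells and 15 with at least 3 notum genes. *Idgf4*, which encodes a chitinase-like secreted growth factor, averaged 21.2, 20.9, 18.9 and 12.5 UMIs per 10000 in notum-like cells, against 2.60, 3.23, 3.80 and 3.29 in notum-negative cells. Its log2 ratio was 3.03 on day 4 and 1.92 on day 14. *Timp*, which encodes an inhibitor of matrix metalloproteinases, averaged 0.143, 0.337, 0.433 and 0.512 in notum-like cells, against 0.00732, 0.0252, 0.141 and 0.158 in notum-negative cells. The *Timp* ratio on day 8, 1.62, was 0.84 in thinned cells and 0.38 with at least 3 notum genes, so that its call in all libraries was lost there. For *Idgf4* and *Timp* the ratio was larger at the 2 early ages than at the 2 late ones. *fj*, the Golgi kinase Four-jointed of the Fat and Dachsous pathway, averaged 7.29, 8.30, 7.72 and 10.5 in notum-like cells, against 1.76, 2.25, 2.73 and 4.58 in notum-negative cells. *rst*, an adhesion protein of the immunoglobulin family, had log2 ratios of 2.82, 1.77, 1.32 and 1.21, and *dar1*, a Krüppel-like factor, had 2.68, 2.004, 1.05 and 1.34. *wun2*, a lipid phosphate phosphatase, had 1.89, 1.54, 1.29 and 1.19. The uncharacterised gene *CG32694* had 3.93, 3.48, 2.39 and 2.15. The remaining genes named by the same rule were *CG5273*, *CR44918*, *CR45018*, *frm*, *fend*, *CG10559* and *hui*, with log2 ratios from 1.01 (*frm* on day 14) to 2.65 (*CG5273* on day 4).

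The odd-skipped family, zinc finger genes also used as markers of the squamous peripodial layer and the proximal disc, was on the same side. *drm* passed 2-fold in all 4 libraries, with log2 ratios of 2.16, 1.54, 1.36 and 1.33. *odd* had ratios of 1.59, 1.34, 1.17 and 1.17 but was too low to be among the genes tested. *sob* was at 0.9967, 1.02, 1.39 and 1.48, just under 2-fold on day 4. *Ubx*, a Hox gene of the peripodial layer of this disc, ran the other way and was among the 9 lower genes. It averaged 0.0615, 0.0231, 0.0203 and 0.387 UMIs per 10000 in notum-like cells, against 0.144, 0.204, 0.271 and 0.830 in notum-negative cells. The peripodial list therefore held members on both sides. The proximal genes *hth*, *exd* and *tsh*, which encode homeodomain and zinc finger factors of the hinge and notum, had 0 of 3 past 2-fold in any library, *tsh* being closest at 0.64, 0.66, 0.35 and 0.61.

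**Figure D3:**
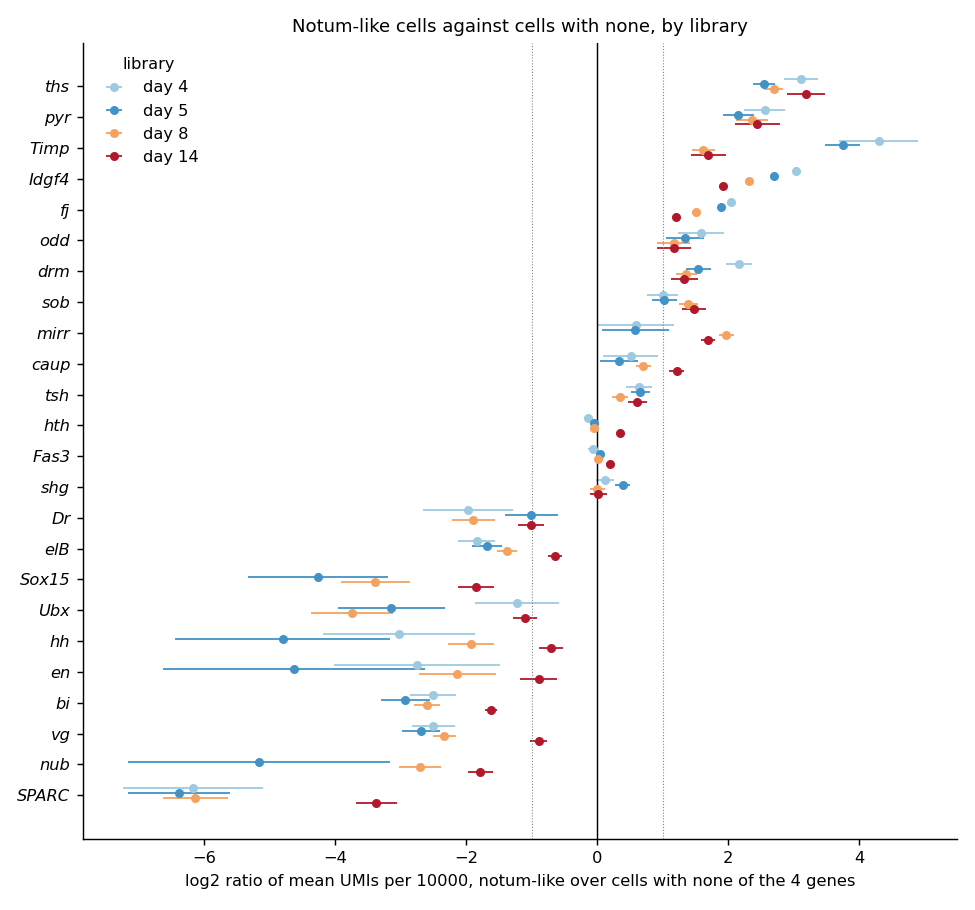
Log2 ratio of mean UMIs per 10000, notum-like over notum-negative cells, for 24 genes in each of the 4 libraries; whiskers are 95% counting half-widths, dotted lines mark 2-fold, and a point is left out where a class had 0 UMIs (*nub* and *Sox15* on day 4). *ths* lies between 2.55 and 3.19, and the wing genes *nub*, *vg* and *bi* lie left of 0 in all libraries drawn.

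Most of the wing pouch genes tested were lower in notum-like cells, and less so on day 14. Of the 9 in the list, 5 passed the filter, and of these 3, 3, 3 and 2 were at least 2-fold lower on days 4, 5, 8 and 14. Of all genes 3.51%, 1.36%, 0.733% and 0.471% were. On days 5 and 14, 1 of the 5 had a ratio above 0. The median log2 ratio of the 5 was -2.50, -2.69, -2.33 and -0.90. *nub*, a POU factor of the wing, had 0 UMIs in notum-like cells on day 4, and averaged 0.00356, 0.0890 and 0.339 UMIs per 10000 on days 5, 8 and 14. It averaged 0.0695, 0.127, 0.578 and 1.17 in notum-negative cells. With a floor of 3 counts over the class, *nub* was at least 7.41-fold lower in notum-like cells on day 4, and its log2 ratio was -2.70 on day 8 and -1.78 on day 14. *vg* averaged 0.216, 0.178, 0.291 and 0.940 in notum-like cells, against 1.23, 1.14, 1.47 and 1.75 in notum-negative cells. *bi*, the T-box factor of the central wing, had log2 ratios of -2.51, -2.93, -2.60 and -1.62. *salm*, another target of Dpp in the wing, did not pass 2-fold in any library, nor did *sd*, the remaining gene of the 5. *nub* and *vg* were thus not absent from the notum-like cells of day 14, where both were at their highest level.

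Of the 3 hinge genes that passed the filter, 2, 2, 2 and 0 were 2-fold lower on days 4, 5, 8 and 14, where 3.51%, 1.36%, 0.733% and 0.471% of all genes were. *noc*, a zinc finger gene, had log2 ratios of -1.31, -1.16, -0.48 and -0.06. *grn*, a GATA factor, was on the other side early, at 0.73, 0.75, -1.06 and -0.29, and 1 of the 3 genes was 2-fold higher on day 4 among cells at or above the median depth. *Sox15*, a hinge transcription factor, had 0 UMIs in notum-like cells on day 4, at least 25.9-fold lower than in notum-negative cells, and log2 ratios of -4.26, -3.38 and -1.84 on days 5, 8 and 14. It was below the filter. *elB*, a zinc finger factor, had log2 ratios of -1.84, -1.68, -1.38 and -0.64, and *zfh2*, another zinc finger gene and below the filter, had -2.55, -1.65, -2.03 and -1.42. *hh*, the Hedgehog ligand made in the posterior compartment, averaged 0.0160, 0.00425, 0.0768 and 0.438 UMIs per 10000 in notum-like cells, against 0.130, 0.118, 0.291 and 0.716 in notum-negative cells. Only 3 UMIs of *hh* stood in the notum-like cells of day 5, 22.0-fold lower on pooled UMIs (exact interval 7.52 to 107-fold). *en*, the posterior selector, had log2 ratios of -2.75, -4.62, -2.13 and -0.89, the day 5 value on 2 UMIs (19.5-fold lower on pooled UMIs, 5.39 to 161-fold), and *inv*, its paralog, had -1.82, -2.49, -2.24 and -1.002. Both were below the filter. *ci* and *ptc*, which act in anterior cells, were within 2-fold in all libraries. *hh*, *en* and *inv* were thus lower in notum-like cells in all 4 libraries, with the smallest ratios on day 14. With the rule on *eyg*, *toe* and *tup* only, *hh* was at -3.02 and -1.13 and *en* at -3.53 and -1.001 on days 8 and 14.

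The dorsal genes were not higher in notum-like cells, although the notum is dorsal tissue. *ap*, the dorsal selector, averaged 0.170, 0.286, 0.423 and 0.848 UMIs per 10000 in notum-like cells, against 0.656, 0.625, 0.542 and 0.850 in notum-negative cells. Its log2 ratio was -1.95, -1.13, -0.36 and 0.00. *Dr*, a homeodomain gene, was 2-fold lower in all libraries, at -1.97, -1.005, -1.89 and -1.01, and its calls on days 5 and 14 were at the limit. *fng* and *Ser*, which encode a Notch-modifying enzyme and a Notch ligand, lay between -0.98 and 0.14 in the 4 libraries. None of the 4 dorsal genes passed 2-fold upward in any library.

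Of the remaining lower genes, *SPARC* and *Ama* moved with the myoblasts in the comparison class. *SPARC*, a collagen-binding matrix protein, had log2 ratios of -6.17, -6.38, -6.13 and -3.37. The notum-negative class held 155, 354, 195 and 34 cells with 2 or more myoblast genes. Without them the *SPARC* ratios were -1.91, -3.23, -2.44 and -0.22 and those of *Ama*, an immunoglobulin family protein, were -2.16, -1.84, -1.89 and -0.70. Both genes then lost the call in all libraries, while 7 of the 9 kept it. In thinned cells *Ubx* and *Dr* lost the call on day 14, at -0.89 and -0.87. The other lower genes were *CG17278*, *tsl* and *vvl*. *vvl*, a POU factor, averaged 0.0400, 0.0384, 0.396 and 2.03 in notum-like cells, against 0.105, 0.240, 1.80 and 5.11 in notum-negative cells.

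JNK-associated genes were higher in the early notum-like cells. Of the 9 tested, 5, 4, 0 and 0 were at least 2-fold higher on days 4, 5, 8 and 14, where 8.74%, 6.04%, 1.57% and 1.07% of all genes were, and 1 was lower in each library. The median log2 ratio of the list was 1.09, 0.94, 0.30 and 0.11. *Mmp1*, a matrix metalloproteinase induced by JNK signaling, averaged 4.28, 3.56, 0.862 and 0.947 UMIs per 10000 in notum-like cells, against 0.949, 1.05, 0.615 and 0.9504 in notum-negative cells. *puc*, the JNK phosphatase and a target of the pathway, averaged 1.02, 0.731, 0.385 and 0.738 in notum-like cells, against 0.362, 0.350, 0.303 and 0.544 in notum-negative cells. Both genes had separate levels in the 2 classes on days 4 and 5, while on day 14 *Mmp1* was level between them, with a log2 ratio of -0.01 and a half-width of 0.14. Cells with at least 5 UMIs of *Mmp1* per 10000 were 26.1% of notum-like cells on day 4 (exact interval 18.3 to 35.1%), against 4.82% of notum-negative cells (4.11 to 5.62%). On day 14 they were 2.46% of notum-like cells (1.19 to 4.48%), against 4.27% (2.59 to 6.59%). Among cells at or above the median depth the *Mmp1* ratio was 1.97, 1.53, 0.34 and 0.11. With ribosomal protein genes left out, 4 and 1 of the 9 genes were 2-fold higher on days 4 and 5, and in thinned cells 4 and 2.

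*cher*, *kay* and *Jra*, which encode filamin and the 2 AP-1 subunits Fos and Jun, were also past 2-fold on day 4, at 1.19, 1.08 and 1.37. *rpr*, a cell death gene, was the lower member on days 4 and 5, with log2 ratios of -1.41 and -1.44. *Ilp8*, the relaxin-like hormone that delays metamorphosis, was the lower member on days 8 and 14. It averaged 1.34, 0.682, 0.229 and 0.703 UMIs per 10000 in notum-like cells, against 0.823, 0.525, 1.28 and 6.18 in notum-negative cells. *Ilp8* was therefore 2-fold lower at the late ages, with log2 ratios of -2.49 and -3.14, while its early values of 0.71 and 0.38 turned to the other sign in thinned cells. The cytokine gene *upd3* had 0.88 and 0.98 on days 4 and 5 but -1.48 and -1.57 on days 8 and 14, and *upd1*, another ligand of the JAK/STAT pathway, had -0.29, 0.19, -1.84 and -2.65. The upd genes were below the filter. The pathway's receptor *dome* and effector *Stat92E* stayed within 2-fold. *Socs36E*, the other gene of the pathway tested, was 2-fold lower on day 8 only, a call lost with the rule on *eyg*, *toe* and *tup* only.

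Cell cycle genes were lower in the notum-like cells of day 4, and their median ratio was closer to 0 at the later ages. Of the 8 tested, 4, 1, 0 and 0 were at least 2-fold lower on days 4, 5, 8 and 14, where 3.51%, 1.36%, 0.733% and 0.471% of all genes were, and 0 were 2-fold higher. The median log2 ratio was -1.07, -0.57, -0.24 and -0.22, and among cells at or above the median depth 4, 3, 0 and 0 were lower. Which of days 8 and 14 had the smaller median ratio depended on the setting. The medians of these days were -0.16 and -0.22 in thinned cells and -0.23 and -0.34 among cells at or above the median depth. On pooled UMIs they were -0.24 and -0.23. *stg*, the Cdc25 phosphatase that drives entry into mitosis, averaged 1.18, 1.86, 4.09 and 7.74 UMIs per 10000 in notum-like cells, against 3.56, 3.67, 5.33 and 8.44 in notum-negative cells. *PCNA*, the replication clamp, averaged 1.42, 2.24, 2.66 and 2.40 in notum-like cells, against 3.32, 3.51, 3.34 and 2.90 in notum-negative cells. *CycE* and *Mcm2* were the other genes past 2-fold on day 4, at -1.41 and -1.21. *Cdk1* and *polo* stayed within 2-fold in all libraries. The levels of *stg* in the 2 classes approached each other with age, and the log2 ratio of day 14 was -0.12.

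Several genes of the Wnt pathway were lower in notum-like cells at the early ages, and *wg* and *Notum* were higher on day 14. Of the 6 tested, 4, 4, 1 and 0 were at least 2-fold lower on days 4, 5, 8 and 14, where 3.51%, 1.36%, 0.733% and 0.471% of all genes were. On the other side 1, 0, 0 and 2 were 2-fold higher, where 8.74%, 6.04%, 1.57% and 1.07% of all genes were. *wg*, the Wnt ligand Wingless, averaged 0.0432, 0.0468, 0.214 and 1.40 UMIs per 10000 in notum-like cells, against 0.415, 0.293, 0.289 and 0.419 in notum-negative cells. Its log2 ratio was -3.27, -2.64, -0.43 and 1.74, with half-widths of 0.17 to 0.67. *Notum*, a secreted enzyme that inactivates Wnt proteins and shares only its name with the tissue, averaged 0.274 and 1.12 in notum-like cells on days 8 and 14, against 0.279 and 0.501 in notum-negative cells. On days 4 and 5 it had 1 and 2 UMIs in notum-like cells, 103-fold (exact interval 18.5 to 4085) and 54.9-fold (15.2 to 453.7) lower on pooled UMIs than in notum-negative cells. *Wnt6* had log2 ratios of -2.69, -2.65, 0.24 and 0.56, and *fz*, a Wnt receptor, had -1.27, -1.60, -1.40 and -0.46. *fz2*, another receptor, was 2-fold higher on day 4 only, at 1.13, a call that was lost with ribosomal protein genes left out. *Wnt2* was not listed on day 4, and averaged 0.279 and 0.239 in notum-like cells on days 8 and 14, against 0.0234 and 0.0837 in notum-negative cells.

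Among the 9 Dpp pathway genes, 1, 1, 0 and 1 were 2-fold higher on days 4, 5, 8 and 14, where 8.74%, 6.04%, 1.57% and 1.07% of all genes were. Lower were 2, 2, 1 and 0, where 3.51%, 1.36%, 0.733% and 0.471% of all genes were. A count of 1 among 9 genes is not read as a result about the list. *dpp*, the BMP ligand, averaged 0.727, 0.731, 0.684 and 0.779 UMIs per 10000 in notum-like cells, against 0.248, 0.259, 0.407 and 0.742 in notum-negative cells. Its level in notum-like cells thus hardly varied over the ages while that of notum-negative cells was highest on day 14. *magu*, also known as pentagone, a secreted regulator of the Dpp gradient, averaged 0.0222, 0.0260, 0.473 and 2.72 in notum-like cells, against 0.126, 0.123, 0.525 and 0.903 in notum-negative cells. *brk*, a repressor of Dpp targets, averaged 0.00620, 0.0294, 0.149 and 0.459 in notum-like cells, against 0.151, 0.189, 0.305 and 0.391 in notum-negative cells. Only 3 UMIs of *brk* stood in the notum-like cells of day 4, 16.9-fold lower on pooled UMIs (5.75 to 81.8-fold). The receptors and Smads *tkv*, *put*, *Mad* and *Med* and the inhibitor *Dad* were within 2-fold in all libraries.

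Of the EGFR pathway, *vn*, a neuregulin-like ligand made in the notum, was 2-fold higher on days 4 and 5 only. It averaged 0.138, 0.170, 0.436 and 0.833 UMIs per 10000 in notum-like cells, against 0.0430, 0.0487, 0.255 and 0.805 in notum-negative cells. *kek1*, a feedback inhibitor of the receptor, was lower on day 5, at -1.39. This call was lost among cells at or above the median depth and with myoblast-containing cells left out of the comparison. The share of cells with a *kek1* UMI on day 5 was 19.0% in notum-like cells and 19.1% in the shallower notum-negative cells. Once the cells of both classes were thinned, it was 9.6% of 177 notum-like and 13.9% of 4635 notum-negative cells. *Egfr*, *spi*, *sty*, *aop* and *Mkp3*, which encode the receptor, another ligand and feedback regulators, stayed within 2-fold. Against notum-negative cells with fewer than 2 myoblast genes, 3 and 2 of the 7 genes tested were 2-fold higher on days 4 and 5, against 1 and 1 with all notum-negative cells, and the median on day 4 was 0.61 in place of 0.04. Of the Notch pathway, only *Dl*, a ligand, passed 2-fold, at -1.11 on day 4. That call was lost among cells at or above the median depth and in thinned cells, where 1 gene of the list was 2-fold higher on day 4. The proneural genes *ac* and *sc*, which select bristle precursors in the notum, were below the filter. *ac* averaged 0.0169, 0.0187, 0.0926 and 0.266 in notum-like cells, against 0.0743, 0.0515, 0.0493 and 0.104 in notum-negative cells, and *sc* 0, 0.00303, 0.0877 and 0.333 against 0.0318, 0.0490, 0.0787 and 0.127. The neuron precursor marker *sens* was not listed before day 14 and had no UMI in notum-like cells there.

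Few genes were past 2-fold on the same side over the whole course. At both early ages 218 genes were higher and 46 lower, and at both late ages 31 were higher and 13 lower. The first 2 counts are 5.7% and 1.2% of the genes tested and the last 2 are 0.811% and 0.34%. Of the 31, 7 were not 2-fold higher on day 4 or 5, namely *Ance*, *CG14598*, *Clect27*, *Kal1*, *Tsp*, *mirr* and *robo2*. *Tsp*, thrombospondin, a tendon cell protein, averaged 0.195, 0.203, 1.36 and 2.40 UMIs per 10000 in notum-like cells, against 0.181, 0.188, 0.373 and 0.825 in notum-negative cells. *Ance*, a peptidase related to angiotensin-converting enzyme, had 0 UMIs in notum-like cells on days 4 and 5 and averaged 2.33 and 2.13 on days 8 and 14. In notum-negative cells it averaged 0.00460, 0.00822, 0.0508 and 0.203. *robo2*, a receptor of the guidance protein Slit, had log2 ratios of 0.05, 0.15, 1.65 and 1.67 and, with *CG14598*, falls outside the rule for named genes. *Kal1* had 0.12, 0.34, 1.97 and 1.24, and *Clect27* was 2-fold lower on days 4 and 5, at -1.56 and -1.04.

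Within notum-like cells alone, more genes were higher on day 14 than lower. Set over day 4, the log2 level on day 14 was up by at least 1 for 642 genes (16.8%) and down by at least 1 for 202 (5.29%), against 507 (13.3%) and 51 (1.33%) in notum-negative cells of the same libraries. The median over all genes was 0.23 in both classes. Day 8 over day 5 gave 126 higher (3.3%) and 93 lower genes (2.43%) in notum-like cells, of which 117 and 72 were among those of day 14 over day 4. A difference between ages is also a difference between 2 libraries.

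Genes with the largest age ratios in notum-like cells were mostly near 0 on day 4. *Ance* was at least 235-fold higher and *nub* at least 40.4-fold higher on day 14 than on day 4. *Cyp18a1*, which inactivates ecdysteroids, had 1 UMI on day 4 and was 404-fold higher on day 14 on pooled UMIs (exact interval 72.4 to 15990), and *Notum* had 1 UMI and was 376-fold higher (67.3 to 14860). *Kal1*, with 3 UMIs on day 4, was 283-fold higher (96.7 to 1373). *CG17278*, *magu*, *Argk* (arginine kinase) and *obst-A* (a chitin-binding protein) had log2 ratios of 7.58, 6.94, 6.62 and 6.47. These intervals are wide because the day 4 counts were low. The same genes also differed by age in notum-negative cells, with log2 ratios of 7.005 for *Argk* and 6.09 for *obst-A*, against 0.69 for *Notum* and 2.84 for *magu*.

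Genes lower on day 14 included the digestive enzyme genes *Amy-p* and *Amy-d*, with log2 ratios of -6.17 and -5.86. They are near-identical copies, so their counts are uncertain, and in notum-negative cells they were at -5.63 and -5.50. *ringer*, a tubulin-binding protein, averaged 0.913, 0.904, 0.187 and 0.0505 UMIs per 10000 in notum-like cells, against 0.0923, 0.131, 0.0706 and 0.0521 in notum-negative cells. *GstD3*, a glutathione transferase, was at -3.81 and *bond*, a fatty acid elongase, at -3.61. The other genes named by the same rule, *CG42326*, *CG9572*, *CG17108*, *CG4267* and *CG44085*, were at -4.49, -4.38, -4.22, -3.67 and -3.47. For *ringer*, *CG42326* and *CG44085* the early level was raised in notum-like cells relative to notum-negative cells, and this gap was within 2-fold on day 14.

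**Figure D4:**
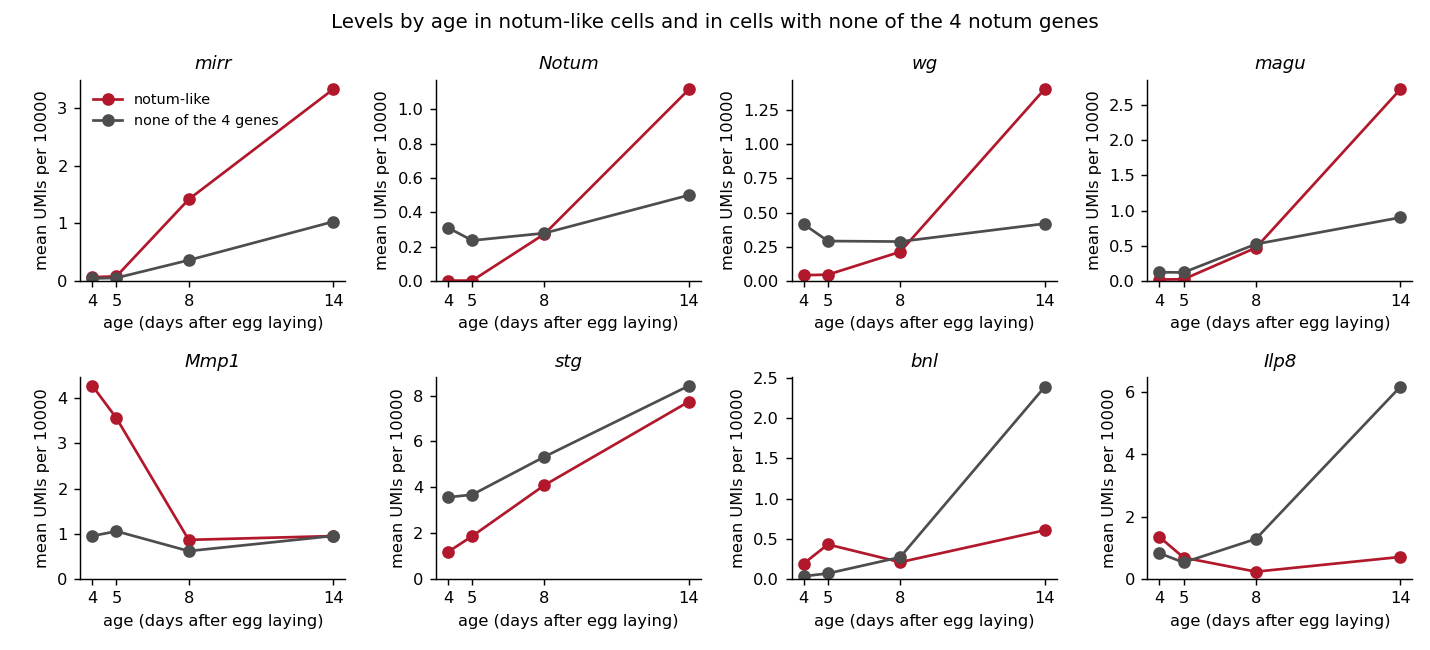
Mean UMIs per 10000 of 8 genes by age (days after egg laying) in notum-like cells and in notum-negative cells, 1 library per age and no error bars. *wg*, *Notum*, *magu* and *mirr* stand highest in notum-like cells on day 14, *Mmp1* is high in notum-like cells on days 4 and 5 only, and *bnl* and *Ilp8* stand highest in notum-negative cells on day 14.

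The age changes of the 2 classes were then set against each other, as the difference of their log2 ratios of day 14 over day 4. The difference was at least 1 for 106 genes (2.77%) and at most -1 for 232 (6.07%), and its median over all genes was 0.03. With ribosomal protein genes left out the counts were 263 and 245 among 5059 genes, a setting that changed both the scaling and the genes tested. The largest differences upward were for *Notum*, *wg*, *CG12911*, *brk*, *Clect27* and *magu*, at 7.89, 5.01, 4.97, 4.84, 4.71 and 4.09. *Clect27*, a C-type lectin, averaged 0.122, 0.171, 1.14 and 3.84 UMIs per 10000 in notum-like cells, against 0.358, 0.351, 0.226 and 0.433 in notum-negative cells. Its level thus differed by age in notum-like cells, while in notum-negative cells it stayed within 2-fold.

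The largest differences downward were for *CG9747*, *bnl*, *Arc1*, *Ilp8*, *CG6357* and *ImpL3*, at -4.80, -4.54, -3.87, -3.84, -3.72 and -3.57. Those of *Arc1*, *Ilp8* and *ImpL3* were smaller in thinned cells, at -1.23, -1.49 and -2.03, and with at least 3 notum genes, at -1.73, -1.16 and -1.47. *bnl* averaged 0.190, 0.428, 0.207 and 0.605 UMIs per 10000 in notum-like cells, against 0.0323, 0.0669, 0.269 and 2.39 in notum-negative cells. Its level in notum-negative cells was highest on day 14. *Arc1*, a Gag-like capsid protein, averaged 2.38, 1.95, 0.430 and 0.904 in notum-like cells, against 0.158, 0.310, 0.283 and 0.877 in notum-negative cells. *ImpL3*, the gene of lactate dehydrogenase, averaged 0.258, 0.142, 1.22 and 6.06 in notum-like cells, against 0.0429, 0.112, 2.62 and 11.99 in notum-negative cells. Both classes thus had most *ImpL3* on day 14. Its day 4 excess in notum-like cells was smaller in deep cells. The day 4 log2 ratio was 2.59 over all cells, 1.60 on pooled UMIs and 0.88 among cells at or above the median depth. Only 1 of 115 notum-like cells had at least 5 UMIs of *ImpL3* per 10000 on that day. On day 5 the log2 ratio was 0.35 over all cells and -1.11 in thinned cells. Of the 12 glycolysis genes, 9 were 2-fold higher on day 14 than on day 4 in notum-like cells and 11 in notum-negative cells, where 16.8% and 13.3% of all genes were, and between the classes 10 and 12 of the 12 were within 2-fold on days 4 and 14.

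Finally, the notum-like cells of days 8 and 14 were divided by *pnr*, the gene of the medial notum. A *pnr* UMI was found in 125 of 384 notum-like cells on day 8 (32.6%) and in 175 of 406 on day 14 (43.1%). The median depth was 19276 UMIs with *pnr*, against 20215 without it, on day 8, and 20827 against 19459 on day 14. A cell without a UMI may still express the gene, so the groups are not pure. Of 4020 genes, 6 were at least 2-fold higher in cells with *pnr* on both days (0.149%) and 12 at least 2-fold lower (0.299%).

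The 6 higher genes held several regulators. *C15*, a homeobox gene, averaged 0.462 UMIs per 10000 on day 8 in cells with *pnr*, against 0.108 without, and 0.333 against 0.0946 on day 14. *Doc1*, a Dorsocross T-box gene, averaged 0.264 with *pnr*, against 0.0752 without, on day 8, and 0.414 against 0.115 on day 14. *wg* averaged 0.404 with *pnr*, against 0.122 without, on day 8, and 1.99 against 0.959 on day 14, or log2 ratios of 1.73 and 1.05. *Ance* averaged 4.55 against 1.25 on day 8 and 3.33 against 1.22 on day 14. All 4 of these genes had UMIs in cells without *pnr* as well. The other genes on this side were *slow* and *CG13024*. *tup*, a gene of the rule, averaged 1.49 with *pnr* against 0.712 without on day 14, while *eyg* and *toe* were within 2-fold. These values are a description only. To pass the rule a cell without *pnr* had to carry 2 of *eyg*, *toe* and *tup*, while a cell with *pnr* needed only 1.

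The 12 lower genes included *Drip*, an aquaporin, at 0.0797 UMIs per 10000 with *pnr*, against 2.84 without, on day 8 and 0.468 against 1.44 on day 14. *E5*, a homeobox gene, averaged 0.2145 with *pnr*, against 0.490 without, on day 14, and had 3 and 240 UMIs on day 8. *NijC* (a ninjurin), *Spn47C* (a serpin), *Arc1*, *Cys*, *Cpr12A*, *CG8066*, *CG5254*, *CG13117* and *Adk1* were on the same side. The twelfth, *pncr002:3R*, had 0 and 1 UMIs on day 8, too few for a ratio, and 0.103 against 0.972 per 10000 on day 14. *mirr*, *caup*, *ths*, *pyr* and *dpp* did not pass 2-fold on both days, although *mirr* had log2 ratios of 1.07 and 0.51 and *ths* of 0.61 and 0.30. *Mmp1* was lower with *pnr* on day 8, at -1.48, and near level on day 14, at -0.15. The ligands and *mirr* were thus present in notum-like cells with and without *pnr*.

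**Figure D5:**
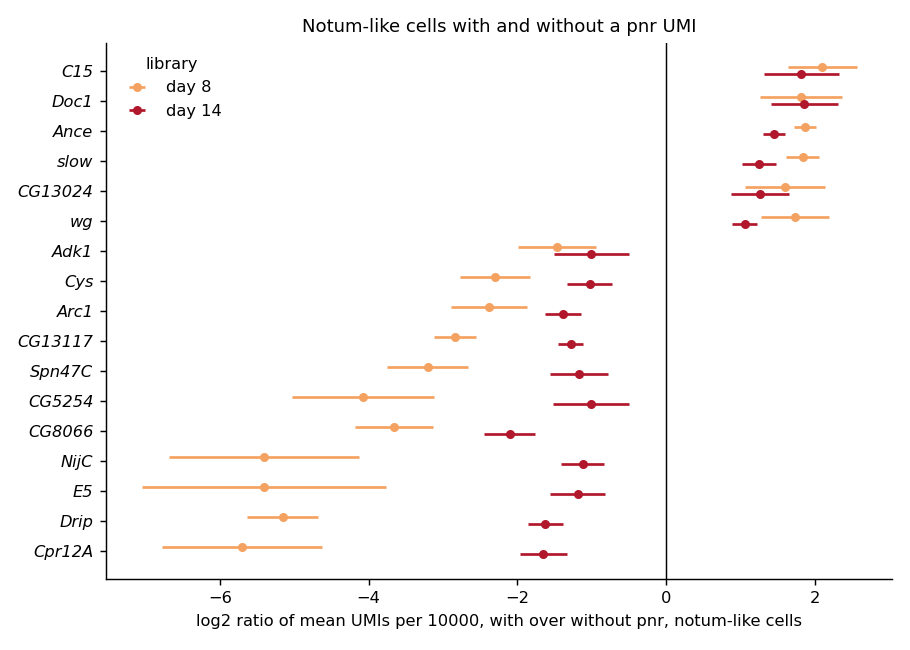
Log2 ratio of mean UMIs per 10000, notum-like cells with a *pnr* UMI over those without, on days 8 and 14, for the 17 genes past 2-fold in the same direction on both days that had UMIs in both groups; whiskers are 95% counting half-widths. *C15* lies at 2.10 and 1.82 and *Drip* at -5.16 and -1.62.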

How the data were processed

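Single-cell RNA of *scrib* mutant wing discs was measured in 1 library per age, with groups taken from the age labels. Per the submitters' processing notes the authors used Cell Ranger and Seurat, and the sources used here do not give versions, the genome build or cell filters. The values deposited by the authors were the natural log of 1 plus a gene's UMIs per 10000 in that cell. Taken back to the linear scale, 100% of values came out as whole UMIs (tolerance 0.001), which were used. The most genes in a cell were 3988 to 3998 in the 4 libraries. Total depth was 91045765, 134888985, 62338564 and 22458962 UMIs on days 4, 5, 8 and 14.

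Levels were means over cells of UMIs per 10000. Changes were log2 ratios of these means. A gene with 0 UMIs in the notum-like class counted as lower. Calls used a 2-fold limit among genes listed in all 4 files with a mean of at least 0.2 UMIs per 10000 over the 8 class-by-library means, or over the 4 group means for *pnr*. Shares had exact binomial (Clopper-Pearson) intervals. Half-widths of log2 ratios came from a normal approximation on UMI sums. Ratios with 1 to 3 UMIs had exact intervals on pooled UMIs, and those against 0 used a floor of 3 counts over the class. No p-value was computed and no doublet caller was run. Thinning was to 12000 UMIs. Genes named are those of the rule and of the gene lists, and those with the 15 largest and 10 smallest median ratios past 2-fold in all 4 libraries, the 10 largest and 10 smallest age ratios, and the 6 largest and 6 smallest differences of age change, with at least 20 UMIs in each library used. Those that set *pnr* groups apart, *robo2*, *CG14598*, *wun2*, *Cpr64Aa* and *scrib* were named after their values were seen. The members and lists were chosen with earlier results of these data known. Positions were from Ensembl, where 204 of 215 named genes matched and 68 overlapped a gene on the other strand. Other thresholds, filters, scalings and comparison cells were tried as alternatives. The scripts, tested on simulated data, ran under python 3.11.15 with numpy 2.4.6, scipy 1.17.1 and pandas 2.3.3.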

Additional observations from a re-analysis of the deposited data

Results flagged for a closer look

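For 9 genes the ratio of notum-like over notum-negative cells passed 2-fold upward in one library and 2-fold downward in another. With 1 library per age none of these differences was tested, and age cannot be told apart from library. *wg*, the Wnt ligand, had a log2 ratio of 1.74 on day 14 and -3.27 on day 4, a difference of 5.01. *magu* had 1.59 on day 14 and -2.50 on day 4, a difference of 4.10, and *Clect27* had 3.15 on day 14 and -1.56 on day 4, a difference of 4.71. The opposite order was seen for *CG9747*, at -1.04 on day 14 and 3.76 on day 4 (4.80 apart), and for *CG4267*, at -1.06 on day 14 and 1.86 on day 4 (2.92 apart). *bnl*, the FGF ligand of tracheal cells, had -1.98 on day 14 and 2.68 on day 5, 4.66 apart. *ImpL3* had -1.11 on day 8 and 2.59 on day 4, 3.69 apart, and its day 4 value was 0.88 among cells at or above the median depth. *Cpr64Aa*, a cuticle protein gene, had -2.82 on day 8 and 1.42 on day 5, 4.24 apart. *CG12911* had 1.08 on day 5 and -4.00 on day 4, 5.08 apart, although those libraries are 1 day apart in age.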

How the results depend on the processing

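The share of notum-like cells was in the same order of days (4 and 5 lowest, 14 highest) under all alternatives. On days 4, 5, 8 and 14 it was 0.608%, 0.387%, 4.25% and 20.4% with at least 3 of the 4 notum genes, 0.238%, 0.310%, 4.45% and 22.3% with 2 UMIs required of a gene, and 0.962%, 1.05%, 8.51% and 29.1% in thinned cells. Without the 10% of cells with most UMIs it was 2.29% on day 4 and 2.24% on day 5, and the rule on *eyg*, *toe* and *tup* only, chosen after seeing the data, gave 10.8% and 32.4% on days 8 and 14. The 6 counts of genes (23 and 9 higher and lower in all libraries, 642 and 202 by age, 106 and 232 by the difference of age changes) were 7, 4, 132, 93, 11 and 68 with a filter at a mean of 1 and 52, 92, 2060, 490, 902 and 744 with no filter, which change how many genes are tested. Leaving ribosomal protein genes out of the totals gave 16 lower in all libraries and 263 differences of at least 1, and it moved the median log2 ratio to -0.21, -0.15, -0.04 and -0.03 on days 4, 5, 8 and 14. At least 3 notum genes gave 256 such differences, and thinned cells gave 13 genes higher in all libraries and 246 differences. The cause of these shifts was not tested. Leaving out 1 library in turn gave 23 to 50 genes higher and 9 to 16 lower in all that remained, the highest counts without day 14. Day 8 over day 5 gave 126 higher and 93 lower. Of the genes named by size, 55, 17 and 27 values (contrast, age and difference) moved beyond their counting half-width and 134, 99 and 63 did not, and none changed sign. No paired analysis of the ages was possible because there was only 1 library per age, and no value comes from a test. Class ratios were taken within each library. Depth limits the rare genes most, since on day 4 a count of 3 in the notum-like class is 0.00846 UMIs per 10000.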
